A study of Mus musculus with 2 samples.

Results

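The C/EBP transcription factors were described in sorted mouse bone marrow cells with and without TIF1γ (gene Trim33). The members are the 6 genes Cebpa, Cebpb, Cebpd, Cebpe, Cebpg and Cebpz, taken with every probe set that the platform annotation assigns to them. The annotation gave 8 probe sets for 4 of the 6 genes, among 34945 probe sets for 18193 genes. Cebpa had 1 probe set, Cebpb 2, Cebpd 2 and Cebpg 3, whereas Cebpe and Cebpz were not analysed here. The probe set of Cebpzos, a separate gene that overlaps Cebpz in the RefSeq annotation, was not counted as a member.

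Total RNA was hybridised to 2 Affymetrix arrays. One held wild type cells, and the other held cells of mice with a conditional TIF1γ inactivation, labelled TIF1γ Δ/Δ. All were KLS cells, bone marrow cells sorted as negative for lineage markers and positive for c-kit and Sca, a fraction that holds stem cells and early progenitors. The labels give 25 ng of total RNA per sample, amplified in 2 cycles. The promoter that drives the recombinase, the age of the mice and the number of animals per sample were not given in the sources used here. With 1 array per genotype there was no replicate error and no test, so each difference below compares 2 arrays.

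C/EBP proteins are basic leucine zipper (bZIP) factors that bind DNA as dimers at palindromic sites. In blood formation, C/EBPα is needed for the step from common myeloid to granulocyte-monocyte progenitors, and it restrains stem cell cycling. C/EBPε drives the later granule programme of neutrophils, while C/EBPβ and C/EBPδ act in emergency granulopoiesis and inflammation. C/EBPγ lacks a strong activation domain and pairs with other bZIP proteins, ATF4 among them. Cebpz shares the name only: its protein is no bZIP factor and its yeast relative acts in ribosome assembly.

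The promoter sequence of Cebpa is shown because Cebpa was the member at least 2-fold higher in TIF1γ Δ/Δ cells, and because the mouse promoter is known to be bound by C/EBP proteins themselves. The 250 bases before the RefSeq start site (build GRCm38.p6, plus strand, chr7:35119043-35119292) hold 1 copy of TTGCG, one arm of the C/EBP palindrome, searched on both strands and given in capitals.
Cebpa: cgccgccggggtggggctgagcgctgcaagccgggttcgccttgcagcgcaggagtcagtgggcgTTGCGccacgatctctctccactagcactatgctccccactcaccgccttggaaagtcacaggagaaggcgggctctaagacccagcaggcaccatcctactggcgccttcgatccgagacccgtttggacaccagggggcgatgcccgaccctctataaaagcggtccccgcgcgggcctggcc
This arm begins at position -185 from the start site. Of 32851 promoter windows of the same length, 14.5% hold it on either strand. The same stretch of Cebpb and of Cebpg held no copy, and neither did these 3 promoters hold the longer C/EBP letters used further on.

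Signals are probe set intensities on the linear scale of MAS5, the Affymetrix signal algorithm. A difference is the log2 signal in TIF1γ Δ/Δ minus that in wild type cells, less the median difference of -0.024 over probe sets measured on both. A probe set counted as measured where it reached the median signal of its array, a floor of 14.4 for wild type and 11.7 for TIF1γ Δ/Δ. Where only 1 array reached its floor, the other signal was set to the floor and the difference is a bound. Genes with several probe sets are represented by the brightest, and counts of genes at least 2-fold apart go by size alone. The gene lists below were chosen with earlier results of these data known. Their contrast with all genes is therefore no independent evidence.

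The targeted gene was lower in TIF1γ Δ/Δ cells: the brightest probe set of Trim33 gave 379 and 172 (log2 -1.12). Whether that probe set lies in the deleted part was not given in the sources used here. KLS and stem cell markers were present on both arrays, with 9 of 9 probed genes measured on each. The c-kit gene Kit gave 384 in wild type and 495 in TIF1γ Δ/Δ cells, and Cd34 gave 1398 and 2326. Sca-1 (Ly6a) had no probe set of its own. Markers of mature cells differed greatly between the arrays. The summed signal of 13 probed neutrophil markers was 31788 in wild type and 349 in TIF1γ Δ/Δ cells, and that of 13 macrophage and monocyte markers 5060 and 398. Of the neutrophil markers, 12 were measured in wild type and 6 in TIF1γ Δ/Δ cells. Of the macrophage and monocyte markers, 12 and 7 were measured. The wild type neutrophil sum is carried largely by a few bright genes, such as S100a8 (9568 to 53.6). Of the 12 measured neutrophil markers, 11 were below 0 and 1 above, Csf3r (163 to 168, log2 0.069). Camp reached 12.7, C1qa 0.503 and C1qc 0.377 in TIF1γ Δ/Δ cells. C/EBP genes are themselves active in these mature cells. In bulk samples, fewer cells of a type and less RNA per cell cannot be told apart. The ratio of 3' to 5' Gapdh signal, a sign of RNA length, was 7.86 in wild type and 7.38 in TIF1γ Δ/Δ cells.

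Among the 4 probed C/EBP genes, 1 was at least 2-fold higher (Cebpa), 1 at least 2-fold lower (Cebpd) and 2 differed by less (Cebpb and Cebpg). Over all 11724 genes measured on at least 1 array, 2.53% were higher and 6.01% lower by at least 2-fold. The median difference was 0.090 over the 4 C/EBP genes and 0.00020 over all genes.

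**Figure D1:**
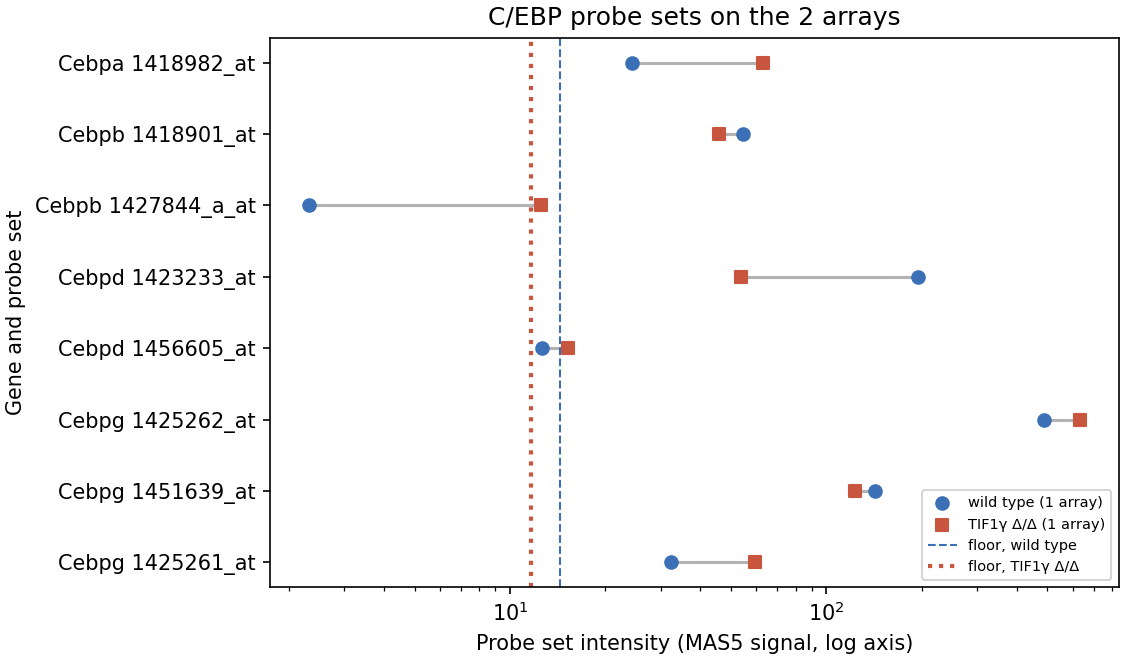
Intensity (log axis, MAS5 signal) of the 8 C/EBP probe sets on the wild type array (circles) and the TIF1γ Δ/Δ array (squares), 1 array each, with each array's floor as a vertical line. Cebpa lies to the right in TIF1γ Δ/Δ cells (24.4 to 63.1), the brighter Cebpd probe set to the left (195 to 53.8), and the others lie closer together or near the floors.

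Cebpa encodes C/EBPα, the member that opens the granulocyte-monocyte path. Its probe set, 1418982_at, gave 24.4 in wild type and 63.1 in TIF1γ Δ/Δ cells. The difference was log2 1.39, or 2.63-fold higher in TIF1γ Δ/Δ cells. Both signals lay above the floors, although the wild type signal was low. Of the 10365 genes measured on both arrays, 58 (0.560%) were at this difference or above it, Cebpa included. Of the 1496 genes whose mean log2 signal was within 0.5 of that of Cebpa, 17 (1.14%) were as far in this direction. Cebpa rests on 1 probe set, so there is no second measure of it within an array. With the floor raised to the 65th percentile the wild type signal fell under it, and the difference became a bound of 0.74. With a pseudocount of 16 it was 0.9976, just under 2-fold.

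Cebpd encodes C/EBPδ, a factor induced by inflammatory signals and present in mature myeloid cells. Its brighter probe set, 1423233_at, gave 195 in wild type and 53.8 in TIF1γ Δ/Δ cells. The difference was log2 -1.83, or 3.56-fold lower in TIF1γ Δ/Δ cells. Of the 10365 genes measured on both arrays, 107 (1.03%) were at this difference or below it. Of 1916 genes of like signal, 25 (1.30%) were as far lower. The second probe set, 1456605_at, did not show this: it gave 12.6 in wild type cells, under the floor, and 15.3 in TIF1γ Δ/Δ cells, a bound of log2 0.11. With the mean of both probe sets the difference was -0.86, under 2-fold. The lower Cebpd signal came with the lower summed signals of neutrophil (31788 to 349) and macrophage markers (5060 to 398), and their part in it was not tested. Cebpd stayed above the floor in TIF1γ Δ/Δ cells.

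Cebpb encodes C/EBPβ, the member that can stand in for C/EBPα in emergency granulopoiesis and is made as long activating and short inhibitory proteins from the same mRNA. Its brighter probe set, 1418901_at, gave 54.4 in wild type and 45.8 in TIF1γ Δ/Δ cells, a difference of log2 -0.22. The probe set 1427844_a_at gave 2.31 and 12.5, with the first under its floor and the second barely above. That pair gives no fold, since the wild type floor of 14.4 is above the TIF1γ Δ/Δ signal. An mRNA signal does not separate the long and short C/EBPβ proteins.

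Cebpg encodes C/EBPγ, and its gene lies near Cebpa on chromosome 7. All 3 of its probe sets reached the floors, and they did not share a direction. The brightest, 1425262_at, gave 487 and 634 (log2 0.40). The second, 1451639_at, gave 142 and 123 (log2 -0.18). The faintest, 1425261_at, gave 32.3 and 59.7 (log2 0.91). For comparison, measured probe sets of the same gene scattered with an SD of 0.45 (log2, 4534 genes), so probe sets of a gene commonly disagree by amounts of this kind. Cebpzos, the gene that overlaps Cebpz, read 168 in wild type and 116 in TIF1γ Δ/Δ cells (log2 -0.51) and was named after its value was seen.

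**Figure D2:**
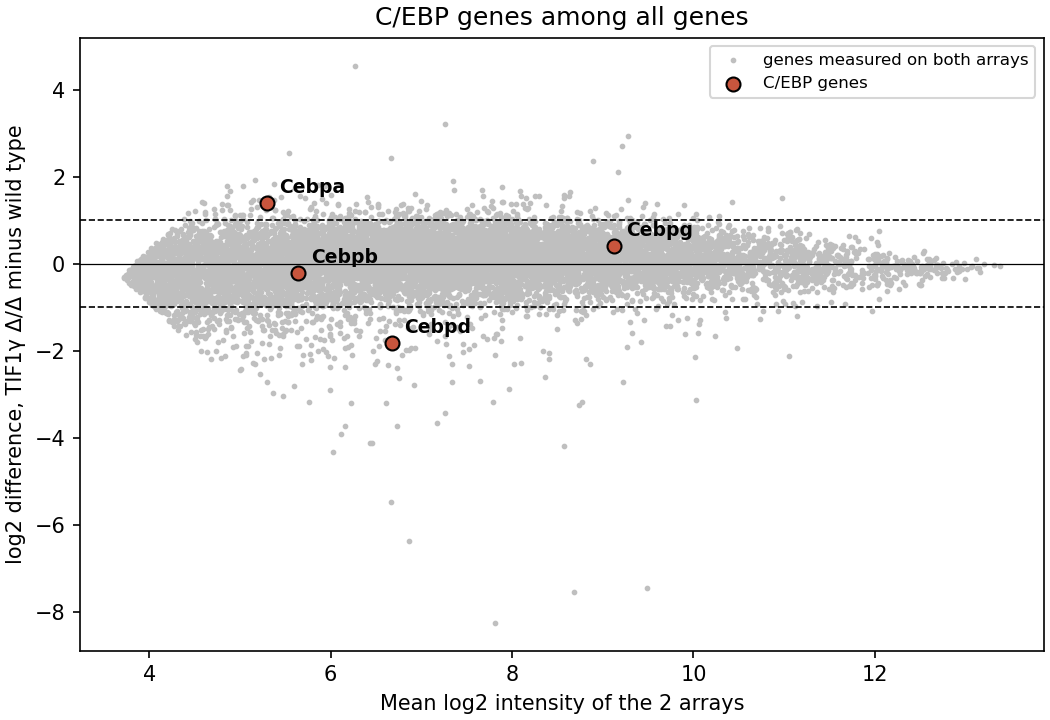
Each grey point is a gene measured on both arrays, with its mean log2 intensity on the x axis and its log2 difference on the y axis, and red points are the 4 probed C/EBP genes. Dashed lines mark 2-fold. Cebpa (1.39) and Cebpd (-1.83) lie outside the lines in opposite directions, and Cebpb (-0.22) and Cebpg (0.40) lie inside them.

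Among 34 other haematopoietic transcription factors measured on both arrays, Gata2 had the difference nearest to that of Cebpa. Gata2, a stem and early progenitor factor, gave 182 and 472 (log2 1.398), a gap of 0.0049 from Cebpa. Its second probe set gave 175 and 193 (log2 0.16). Runx3 followed with 125 and 272 (log2 1.14) and Mef2c, a factor of lymphoid and myeloid progenitors, with 532 and 1067 (log2 1.03), the latter higher in 5 of 5 probe sets. Nearest to Cebpb were Gata1 (log2 -0.18), Bcl11a (log2 -0.28) and Gfi1b (log2 -0.28). Of 6 measured Bcl11a probe sets, 3 were above 0 and 3 below. The measure of likeness is the gap between single differences over 2 arrays. Of the 35 measured factors on this list, 3 were at least 2-fold higher and 3 lower, with a median of 0.071. The shares over all genes were 2.53% and 6.01%. The lower ones were Id2 (1046 to 207, log2 -2.31), an inhibitor of E proteins, the erythroid factor Klf1 (496 to 149, log2 -1.71) and the monocyte factor Klf4 (276 to 85.5, log2 -1.67).

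Factors known to act on Cebpa, several of them through its downstream enhancer, were mostly under 2-fold apart. Of 16 measured, 1 was at least 2-fold higher (Gata2) and none lower, against 2.53% and 6.01% of all genes. The 16 had a median difference of 0.14, against 0.00020 over all genes. Runx1, which is needed for normal Cebpa expression, gave 165 and 206 (log2 0.34) on its brightest probe set, with 4 of 6 higher and 2 lower, and its partner Cbfb gave 1684 and 2729 (log2 0.72). Spi1, the gene of PU.1, gave 101 and 79.6 (log2 -0.32). Lmo2, Tal1, Erg and Fli1 had log2 differences of 0.071, 0.21, 0.087 and -0.092. The brightest probe set of Stat3 gave 86.1 and 154 (log2 0.86), but another, 1459961_a_at, gave 147 and 64.4 (log2 -1.17).

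Genes that act on C/EBP proteins or on their translation had a median of 0.24 over 19 measured members, with 1 at least 2-fold higher and 2 lower. Of all genes, 2.53% were higher and 6.01% lower by at least 2-fold. Gsk3b, a kinase that phosphorylates C/EBP proteins, gave 102 and 236 (log2 1.23) on its brightest probe set, but 3 of its 6 probe sets were higher and 3 lower. The brightest probe set of Eif2ak2, the kinase PKR, gave 50.9 and 14.5 (log2 -1.79). Another, 1440866_at, gave 7.56 (under the floor) and 17.0, a bound of 0.26 in the other direction. Trib3 gave 92.8 and 39.4 (log2 -1.21) and was lower in both probe sets. Its relatives Trib1 and Trib2, which recruit the ubiquitin ligase COP1 to C/EBPα for degradation, were under 2-fold apart. Trib1 gave 39.5 and 55.0 (log2 0.50), Trib2 gave 73.6 and 58.1 (log2 -0.32), and Cop1 gave 579 and 658 (log2 0.21).

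Dimer partners and related bZIP factors had a median of -0.047 over 21 measured members, with none at least 2-fold higher and 3 lower. Over all genes measured on at least 1 array, 2.53% were at least 2-fold higher and 6.01% lower. Maf, a macrophage factor, gave 145 and 38.7 (log2 -1.88), and 4 of 4 measured probe sets were lower. Batf3, a dendritic cell factor, gave 39.3 on the wild type array and lay under the floor in TIF1γ Δ/Δ cells, at least 3.31-fold lower. Ddit3, known as CHOP and C/EBPζ, gave 155 and 72.1 (log2 -1.09). Its second probe set gave 75.4 and 60.7 (log2 -0.29). The brightest member, Fos, gave 4352 and 4672 (log2 0.13), and Jun gave 1117 and 1419 (log2 0.37). Batf gave 127 and 74.9 (log2 -0.74), and Atf3 gave 51.9 and 83.9 (log2 0.72).

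Early myeloid genes linked to C/EBPα were lower in TIF1γ Δ/Δ cells, where the Cebpa signal was higher. Of 14 measured genes, 7 were lower by at least 2-fold and none was higher. The median was -1.02, against 0.00020 over all genes, of which 6.01% were lower and 2.53% higher by at least 2-fold. The list was chosen with earlier results of these data known, so this contrast is no independent evidence. Hp, the gene of haptoglobin, gave 516 and 40.1 (log2 -3.66). Csf1r, which encodes the M-CSF receptor, gave 684 and 91.1 (log2 -2.88), lower in 3 of 3 probe sets. The neutrophil elastase gene Elane gave 611 and 123 (log2 -2.29), and the lysozyme gene Lyz2 gave 2201 and 489 (log2 -2.15). Members within the list differed widely. The G-CSF receptor gene Csf3r gave 163 and 168 (log2 0.069), and the repressor Gfi1 gave 194 and 194 (log2 0.025). The peroxidase gene Mpo of primary granules gave 5497 and 3840 (log2 -0.49). The neutrophil and macrophage markers, summed at 31788 to 349 and 5060 to 398, were lower on the same array, and their part in this list was not tested. Mpo, Elane, Prtn3, Ctsg, Ms4a3, Csf1r and Csf3r are also on the list of granulocyte-monocyte progenitor markers below. Hp is also among the granule genes linked to C/EBPε, and Lyz2 and Cd14 among the inflammatory genes. These lists are therefore no separate evidence beside each other.

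**Figure D3:**
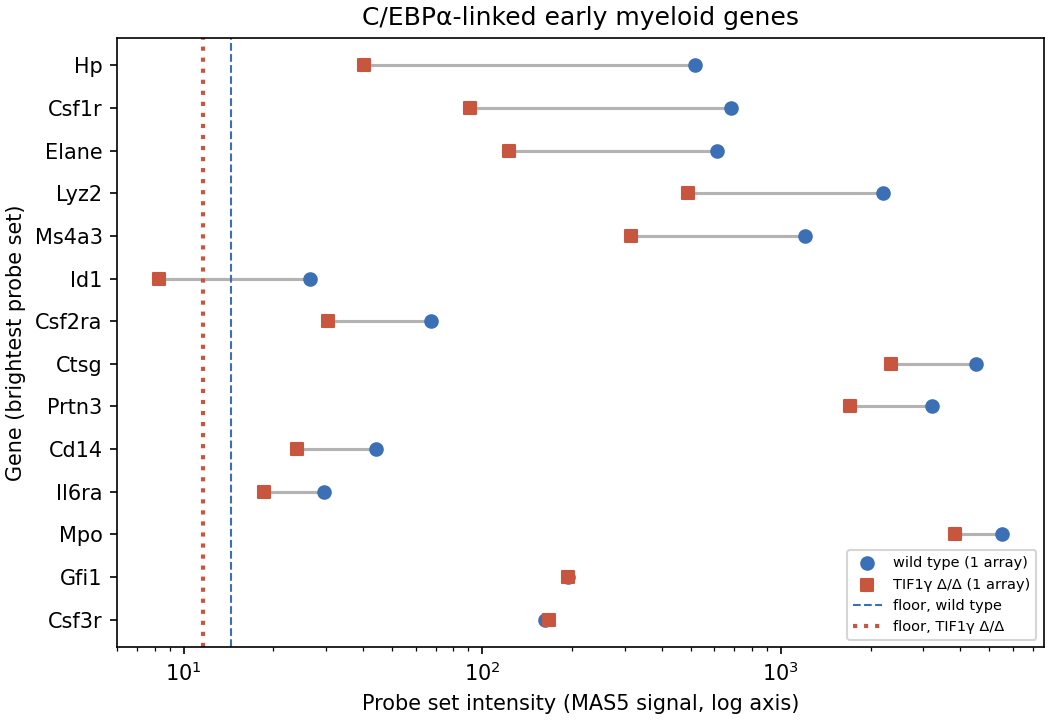
Intensity (log axis, MAS5 signal) of the 14 early myeloid genes linked to C/EBPα on the wild type (circles) and TIF1γ Δ/Δ array (squares), 1 array each, ordered by difference, with each array's floor as a vertical line. Hp and Csf1r are furthest apart, while Gfi1 and Csf3r nearly coincide.

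Genes reported to be repressed by C/EBPα did not differ by 2-fold in either direction among the 4 measured of 6. Over all genes, 2.53% were higher and 6.01% lower by at least 2-fold. Sox4, which promotes self-renewal of progenitors, gave 1083 and 1812 (log2 0.77), with 4 of 6 measured probe sets higher and 2 lower. Myc gave 448 and 505 (log2 0.20). Mycn gave 196 and 253 (log2 0.39), and the brightest E2f1 probe set gave 104 and 79.5 (log2 -0.36), while its other 2 measured probe sets were above 0 (log2 0.78 and a bound of 0.31). The B lineage factors Pax5 and Ebf1 did not reach the floor on either array.

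The granule and maturation genes linked to C/EBPε were much lower in TIF1γ Δ/Δ cells, although Cebpe itself was not analysed here. Of 18 measured genes, 16 were lower by at least 2-fold and none was higher, against 6.01% and 2.53% of all genes. The median was -4.54, or -3.74 over the 9 measured on both arrays. S100a9 was at least 688-fold lower, with 8147 on the wild type array and a signal under the floor in TIF1γ Δ/Δ cells. The antimicrobial peptide gene Camp gave 3951 and 12.7 (log2 -8.26), the second barely above its floor of 11.7, so that this difference is close to a bound. Chil3 was at least 268-fold and the siderophore-binding lipocalin gene Lcn2 at least 188-fold lower. The 2 members under 2-fold were Ncf1 (545 to 377, log2 -0.51) and Padi4 (148 to 187, log2 0.37), named after their values were seen. This list overlaps the mature neutrophil markers, so it is no separate evidence beside them.

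The promoter stretches of the granule genes that carry C/EBP letters are shown so that the site can be seen beside the signals. The letters searched were TTGCNNAA and, for the other strand, TTNNGCAA, which overlap where a site reads the same on both. They occur in 5 of the 15 granule genes with a RefSeq promoter window of 300 bases (33.3%). The share among all 27025 genes with such windows was 12.2%. Other lists also held the letters, so a share above that of all genes is not particular to the granule genes. They were in 7 of 13 mature neutrophil markers, a list that shares genes with this one. Stroma, endothelium and adipocyte markers had them in 4 of 8, and inflammatory genes linked to C/EBPβ and C/EBPδ in 4 of 15. They were also in 3 of 12 upstream factors of Cebpa and 3 of 12 eosinophil, basophil and mast cell markers. Early myeloid genes had them in 2 of 10, and erythroid markers in 0 of 11. The stretches are from build GRCm38.p6, 5′ to 3′ on the gene's strand, with the letters in capitals.
Ngp (chr9:110419659-110419688, plus strand): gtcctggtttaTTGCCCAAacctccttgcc
Lcn2 (chr2:32387937-32387966, minus strand): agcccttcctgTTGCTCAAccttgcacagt
Ltf (chr9:111019206-111019235, plus strand): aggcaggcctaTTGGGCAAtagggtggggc
Mmp8 (chr9:7558399-7558428, plus strand): ttaggcagaagTTGCTCAAgatgtagcttt
S100a9 (chr3:90695939-90695968, minus strand): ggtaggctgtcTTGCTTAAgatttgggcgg
Ngp held a second copy closer to its start site. All 5 genes were at least 2-fold lower, from -9.43 to -4.57, with a median of -7.55. Of 9 measured granule genes whose window lacked the letters, 7 were at least 2-fold lower, with a median of -3.74. The values of Ltf, Lcn2, Mmp8 and S100a9 are bounds, and so are those of Chil3, Olfm4, Itgb2l and Cd177 without the letters. A bound is set by the wild type signal and the floor, so these medians cannot compare how far the sets fell. Camp, one of the lowest genes, was among those without the letters in this window.

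Of 22 inflammatory genes linked to C/EBPβ and C/EBPδ, 14 were measured on at least 1 array. The wild type array had 13 of them, the TIF1γ Δ/Δ array 10, and 9 were measured on both. Of the 14, none was at least 2-fold higher and 3 were lower, against 2.53% and 6.01% of all genes. The median of the 14 was -0.73. The 3 lower genes were Lyz2 (log2 -2.15), the chemokine gene Cxcl2 (180 to 47.7, log2 -1.89) and the prostaglandin synthase gene Ptgs2 (72.6 to 32.8, log2 -1.12). The classical C/EBPβ targets Il6 (11.4 and 6.68) and Nos2 (0.541 and 0.635) did not reach the floor on either array. The lower inflammatory genes came with the lower neutrophil and macrophage marker sums given above, whose part was not tested.

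C/EBPγ is known to act with ATF4 in the response to amino acid shortage and unfolded protein, and the genes of that response did not differ in a shared direction. Of 20 measured, 1 was at least 2-fold higher and 3 lower, with a median of 0.22. Over all genes, 2.53% were higher and 6.01% lower. The amino acid transporter gene Slc7a5 gave 70.7 and 210 (log2 1.59). The brightest probe set of the asparagine synthetase gene Asns gave 654 and 298 (log2 -1.11), and its second gave 385 and 265 (log2 -0.51). Trib3 and Ddit3 were lower as given above. Atf4 itself gave 1453 and 1151 (log2 -0.31). The serine synthesis genes Phgdh (2064 to 2261, log2 0.16) and Psat1 (2341 to 2202, log2 -0.064), named after their values were seen, were close to equal.

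ATF4 and C/EBP proteins bind such genes at a composite site, which is shown for 4 of the response genes. The letters searched were TGATGNAA and, for the other strand, TTNCATCA. They occur in 7 of 21 response genes with a promoter window (33.3%), and in 4.51% of all genes with windows. Build, direction and capitals are as before.
Asns (chr6:7693214-7693243, minus strand): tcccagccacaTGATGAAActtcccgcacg
Trib3 (chr2:152344028-152344057, minus strand): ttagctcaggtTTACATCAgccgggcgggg
Chac1 (chr2:119351038-119351067, plus strand): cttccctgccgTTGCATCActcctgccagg
Atf3 (chr1:191183425-191183454, minus strand): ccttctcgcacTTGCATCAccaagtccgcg
The 6 measured genes with the letters went both ways, from Trib3 at -1.21 to Atf3 at 0.72 (51.9 and 83.9), with a median of -0.38. Chac1 gave 21.8 and 19.1 (log2 -0.17). The 13 measured genes without the letters ranged from -1.09 to 0.89, with a median of 0.31.

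For Cebpz, the related genes were taken as the nucleolar assembly factors and the subunits of NF-Y, a factor that binds the CCAAT box. None of 23 measured genes was 2-fold apart, against 2.53% higher and 6.01% lower over all genes. Of the 23, 20 were above 0, with a median of 0.23, against 0.00020 over all genes. The regulators of C/EBP proteins (0.24) and the KLS and stem cell markers (0.23) had medians of like size, so this is not particular to the list. With scaling fitted along signal strength (loess) the median was 0.16. The nucleolin gene Ncl gave 1475 and 2656 (log2 0.87), higher in 5 of 5 probe sets, and Npm1 gave 6967 and 6561 (log2 -0.063).

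**Figure D4:**
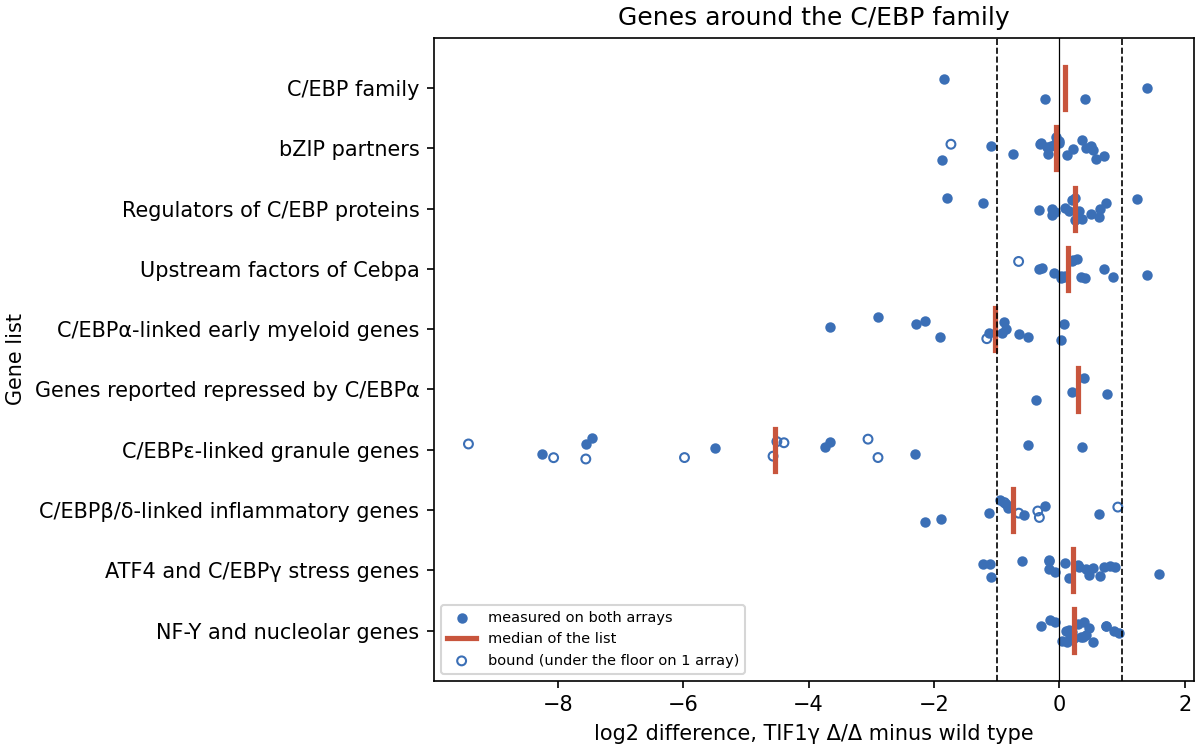
Each point is a measured gene of a list around the C/EBP family, with its log2 difference on the x axis (open points are bounds), and red bars are list medians. Points are jittered vertically and dashed lines mark 2-fold. The granule genes (median -4.54) and the early myeloid genes (median -1.02) lie to the left, while the medians of partners, regulators and upstream factors lie between -0.047 and 0.24.

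Markers of the other cells that could carry C/EBP mRNA differed as follows. The counts stand beside shares over all genes of 2.53% higher and 6.01% lower by at least 2-fold. Of 12 measured neutrophil markers, 10 were lower by at least 2-fold and none was higher (median -5.73), and of 12 macrophage and monocyte markers 11 were lower (median -3.54). Among the latter, Vcam1 was at least 115-fold and the complement gene C1qb at least 42.5-fold lower, and the galectin gene Lgals3 gave 1068 and 12.7, again barely above the floor. Among granulocyte-monocyte progenitor markers, the cells in which C/EBPα is most active, 6 of 15 were lower and none higher (median -0.92). The summed signal of those 15 was 22649 in wild type and 14909 in TIF1γ Δ/Δ cells. Ly86 (508 to 46.2, log2 -3.43) and Igsf6 (at least 9.17-fold) were the lowest, while Calr (3024 to 3622, log2 0.28) and the mast cell protease gene Cpa3 (657 to 958, log2 0.57), named after their values were seen, were higher by less than 2-fold. Eosinophils depend on C/EBPε, and their granule genes are Prg2 (582 to 116, log2 -2.31) and Epx (42.6 to 14.8, log2 -1.497). These were the 2 lower by at least 2-fold of 9 measured eosinophil, basophil and mast cell markers (median -0.51). Within that list 4 genes were above 0 and 5 below, with Siglecf (76.1 to 87.2, log2 0.22) on the higher side. Over the 8 measured on both arrays the median was -0.15. Erythroid markers, 11 measured in wild type and 9 in TIF1γ Δ/Δ cells, had 8 of 11 lower (median -1.71). They were led by the red cell anion exchanger gene Slc4a1 (271 to 17.7, log2 -3.91), Blvrb (515 to 78.2, log2 -2.70), the haem synthesis gene Alas2 (at least 5.79-fold) and Rhd (200.2 to 41.6, log2 -2.24). B cell markers, 5 measured in wild type and 3 in TIF1γ Δ/Δ cells, had 4 of 5 lower (median -2.42). These were Ms4a1, the gene of CD20 (at least 10.7-fold), the surrogate light chain genes Vpreb1 (269 to 43.1, log2 -2.62) and Igll1 (75.3 to 13.8, log2 -2.42), and Blnk (at least 3.88-fold). A second probe set of Igll1, under the floor in wild type cells, gave a bound of log2 0.96 in the other direction. T and NK cell markers had 4 of 8 lower (median -0.96), namely the granzyme gene Gzma (at least 4.26-fold), the NK receptor gene Klrd1 (141 to 36.5, log2 -1.93), the chemokine gene Ccl5 (120.3 to 47.7, log2 -1.31) and Cd3d (at least 2.38-fold). All 8 were measured in wild type but only 3 in TIF1γ Δ/Δ cells. A gene measured in wild type cells only can be counted as lower but not as higher. Megakaryocyte markers had 3 of 8 higher and none lower (median 0.72), namely the platelet chemokine gene Ppbp (44.3 to 234, log2 2.42), the platelet tubulin gene Tubb1 (25.8 to 73.9, log2 1.54) and the integrin gene Itgb3 (58.3 to 146, log2 1.34). C/EBPα is also a factor of fat cells, and the adipocyte genes Adipoq (13.6 and 8.37) and Cidec (0.293 and 0.371) did not reach the floor on either array. Other genes active in fat cells were measured in wild type cells and lower in TIF1γ Δ/Δ cells. The lipoprotein lipase gene Lpl, also active in macrophages, gave 247 and 46.0 (log2 -2.40), and Pparg was at least 2.20-fold lower, with 26.0 in wild type cells. Of 5 measured stroma, endothelium and adipocyte markers, 2 were at least 2-fold higher, Pdgfrb (118 to 279, log2 1.27) among them, and 3 lower, the third being Cxcl12 (73.8 to 32.4, log2 -1.16). KLS and stem cell markers had a median of 0.23, with Tek (log2 1.02) the 1 of 9 at least 2-fold higher.

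**Figure D5:**
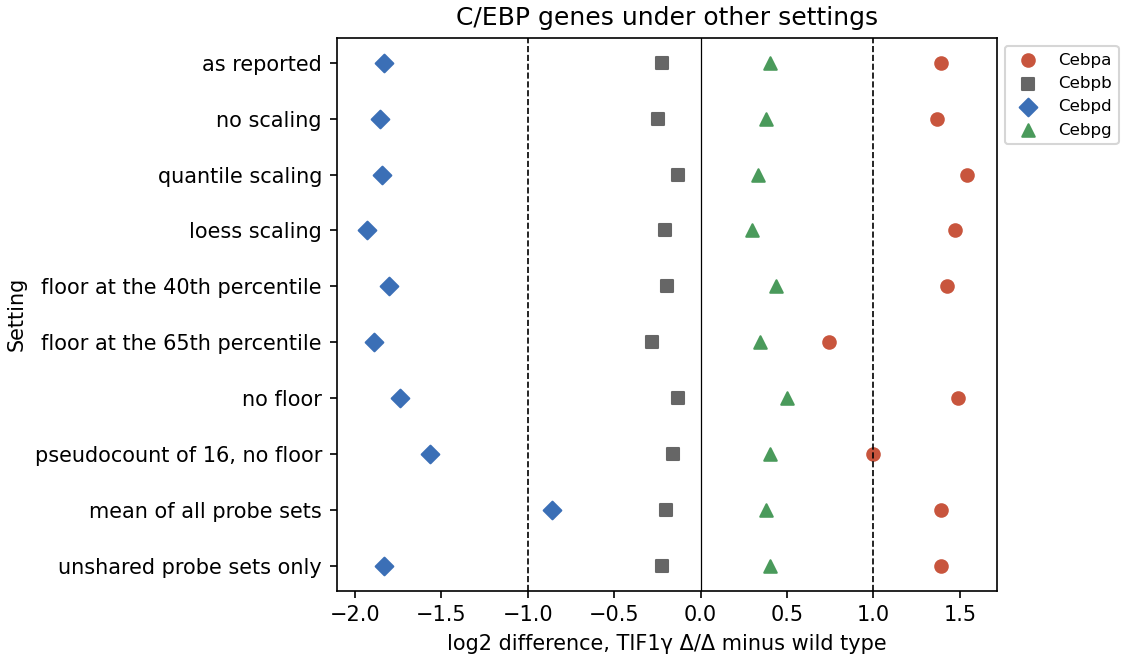
log2 difference of the 4 probed C/EBP genes (x axis) as reported and under 9 other settings of scaling, floor, pseudocount and probe set rule (y axis), with dashed lines at 2-fold. Cebpa stays above 0 and Cebpd below 0 in each, and Cebpa is under 2-fold with the floor at the 65th percentile (a bound of 0.74) or the pseudocount, and Cebpd with the mean of all probe sets (-0.86).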

How the data were processed

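Expression was measured on 2 Affymetrix arrays, 1 per genotype, and groups were taken from the genotype labels. The deposited values are probe set intensity values on a linear scale, made by the authors with MAS5 per the submitters' processing notes; its version and filters were not given in the sources used here. After trimming 2% at each end, the mean of each array was 100, so the arrays had been scaled by the authors before deposit. MAS5 subtracts mismatch signal, which makes low values noisy, so the 50th percentile of the 45037 non-control probe sets was the floor. The number of arrays limits the precision.

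From these, log2 differences were computed as described above. Symbols of the 34945 single-gene probe sets were updated by Entrez identifier to RefSeq (GRCm38.p6), which held 34741 of them; 932 probe sets with several genes and 9160 with none were not used. Promoter sequences are from RefSeq, build GRCm38.p6, with 250 bases before and 50 after a start. The members and the 20 other lists, of 276 genes, were chosen with earlier results of these data known. Named are all members, and of each list up to 4 genes at least 2-fold apart with the largest differences, or else its 2 brightest; others were named to describe their role, after their values were seen. Among haematopoietic factors, the 3 nearest in difference to Cebpa and to Cebpb are named. Alternatives varied scaling, floor, pseudocount, probe set rule, threshold and list summary. The procedure was run on simulated data with effects set only in genes of high wild type signal. The noise set there was below the probe set scatter of these data. That run therefore gives no measure of calls at low signals such as that of Cebpa. Python 3.11.15, numpy 2.4.6, pandas 2.3.3, statsmodels 0.14.6 and matplotlib 3.10.9 were used.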

Additional observations from a re-analysis of the deposited data

How the results depend on the processing

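A value was taken as moved when it shifted by at least the probe set scatter (SD 0.45, log2), and a count when it shifted by over 1.5 times. Of 354 values under alternatives, 310 had not moved. No paired analysis was possible because each genotype has 1 array. Cebpa ranged from 0.74 to 1.54, and Cebpd from -1.93 to -0.86. With a floor at the 65th percentile, 0 C/EBP genes were at least 2-fold higher, as with the pseudocount and at 3-fold. With all probe sets averaged, 0 were lower. The fainter Cebpb probe set, below the wild type floor, was at 0.58 with a floor at the 40th percentile, 0.67 with the pseudocount and 2.555 without a floor. Over all genes, 297 were higher and 705 lower as reported. These counts were 170 and 412 at the 65th percentile, 2025 and 2784 without a floor, 180 and 423 with the pseudocount, 1579 and 1791 at 1.5-fold and 26 and 266 at 3-fold. With the mean of all probe sets 176 were higher.

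Among list medians, that of C/EBPε-linked granule genes was -5.20 with the floor at the 40th and -3.70 at the 65th percentile, -6.45 without a floor, -3.82 with the pseudocount and -3.74 for genes measured on both arrays, an alternative added after seeing the data. Over the same 5 settings in that order, macrophage markers were at -4.01 and -2.94, not moved, -2.68 and -1.55. Neutrophil markers were at -4.55 at the 65th percentile, -4.47 with the pseudocount and -6.47 on both arrays. B cell markers were at -1.57 and -1.30 at the 40th and 65th percentiles, -0.96 with the pseudocount, and -1.96 with the mean of all or with unshared probe sets. Genes reported repressed by C/EBPα were at 0.77 with unshared probe sets. Stroma, endothelium and adipocyte markers, 5 genes at -1.13, were at -0.64 at the 40th percentile, -0.48 by the list mean and -1.78 with unshared probe sets. They turned positive without a floor (0.083) and with the pseudocount (0.017), settings that bring in members under the floor. For the other values with a shift, the cause was not tested.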
